A study of Hydra vulgaris with 5 samples.

Results

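The extracellular matrix of Hydra vulgaris was followed through 407 of the 46156 entries of the deposited count tables, in the hypostome, the dome around the mouth, and in tissue regrowing it. An entry was included when its description contained collagen (minicollagens aside), laminin, thrombospondin, fibronectin, fibrillin, hemicentin, matrix metalloprotease, nidogen, perlecan, integrin or papilin. The 407 entries carry 372 identifiers, and 101 of them share an identifier with another row of the tables. Taken by its letters the rule also takes names that contain "disintegrin" and names of protein domains: 50 entries are disintegrin-type proteases, 34 are ADAMTS proteases (disintegrin-type metalloproteases with thrombospondin motifs) and 22 are named for a domain or a binding partner of a matrix protein. The other 301 entries are described by family below. No entry is named for perlecan, and the single fibronectin entry had no count in any library.

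All 5 libraries come from Hydra of strain 105 whose tissue was dissociated with Pronase E, a mixture of bacterial proteases, and read from the 3′ ends of transcripts on the SureCell droplet system. The hypostome gave 2 libraries, and tissue of bisected animals that was regrowing a hypostome gave 1 library per time point, at 0, 4 and 12 h. The labels do not say how many animals were pooled, and nothing marks the hypostome libraries as separate cultures, so p-values measure only the spread between these libraries.

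In Hydra the mesoglea is the matrix sheet between the ectodermal and endodermal epithelia. A basement membrane of laminin, collagen IV and nidogen faces each epithelium, fibrillar collagens fill the middle, and integrins tie the cells to it. Matrix metalloproteases cut collagens and laminins. Hydra also makes collagens outside the mesoglea: the minicollagens, short collagens that build the wall of the nematocyst, the stinging capsule made by nematocytes.

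Levels are counts scaled to 1000000 per library (CPM) over barcodes with at least 200 detected genes, after entry MSTRG.22171 was removed. That left 129433 and 213647 counts in hypostome 1 and 2, 1209613 (0 h), 1605812 (4 h) and 52713 (12 h), from 110, 168, 2332, 2782 and 64 barcodes. A floor of 3 counts therefore stands at 23.2 and 14 CPM in the hypostome, then 2.48 (0 h), 1.87 (4 h) and 56.9 (12 h). Those barcodes held 37.7% and 27.7% of all counts in the hypostome libraries but 88.3% and 92% at 0 and 4 h. The barcodes are numbered, not given as sequences, and 0 had the same counts in a second library. The hypostome label had little to be checked against, since the head genes Wnt3 and brachyury gave 0 to 15 counts a library: the Wnt3 entry had 0 and 6 counts in the hypostome libraries, then 7 (0 h), 3 (4 h) and 0 (12 h). Nematocyte lineage markers summed to 24955 and 15020 CPM in the hypostome, then 4499 (0 h), 4926 (4 h) and 493 (12 h), and 4, 4, 2, 1 and 17 of the 23 markers were at 0 in the same order.

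A count was seen for 325 of the 407 entries in at least 1 library: 159 and 186 entries in hypostome 1 and 2, 257 (0 h), 282 (4 h) and 89 (12 h). Together they made up 8607 and 6529 CPM in the hypostome, then 5473 (0 h), 6115 (4 h) and 4060 (12 h). A single entry made most of the excess in the hypostome. The collagen-related 3 precursor (MSTRG.8087) stood at 3492 and 1184 CPM there, against 359.6 and 356.8 at 0 and 4 h. Without it the sums were 5115 and 5345 CPM in the hypostome against 5113 at 0 h and 5758 at 4 h, which overlap.

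The hypostome was compared with the 0 h and 4 h libraries entry by entry, with the edgeR quasi-likelihood test across all 7682 entries that passed its filter on low counts. Of the 407 entries 81 passed, and an entry could pass through the libraries of one tissue alone, so counts over the 81 describe those entries only. The test called 8 of them at an adjusted p under 0.05, 3 higher and 5 lower in the hypostome, which is 9.88% against 3.02% of all entries tested (1.86% higher and 1.16% lower). An unadjusted p under 0.05 was found for 23 of the 81 and for 1622 of the 7682. The median log2 fold change was 0.15 for the 81 and -0.05 for all entries tested. Both hypostome libraries lay above both early libraries for 34 entries (42.0%, against 28.4% of all entries tested) and below them for 23 (28.4%, against 22.8%), so non-overlap was common throughout the tables (51.2% of all entries tested). In bulk sums of this kind, fewer cells of a type and less RNA per cell cannot be told apart.

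The entries that fell in the hypostome were 2 collagens, 2 matrix metalloproteases and an ADAMTS protease. Those that rose were collagen alpha4(VI), the collagen-related 3 precursor and a thrombospondin. Scaling by library totals in place of TMM moved the median of all entries from -0.05 to 0.11 and called 14 of the 81, 9 higher and 5 lower, against 402 higher and 145 lower over all entries. All 8 calls were among the 14. With all deposited barcodes 6 of 98 matrix entries were called (1.98% of all entries), 3 of them among the 8. Leaving out hypostome 1, which leaves 1 library of that tissue, ended every one of these calls, as it did nearly all calls over all entries. The 8 log2 fold changes kept their direction, from -4.66 for collagen alpha2(V)-like to 2.40 for the thrombospondin.

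**Figure D1:**
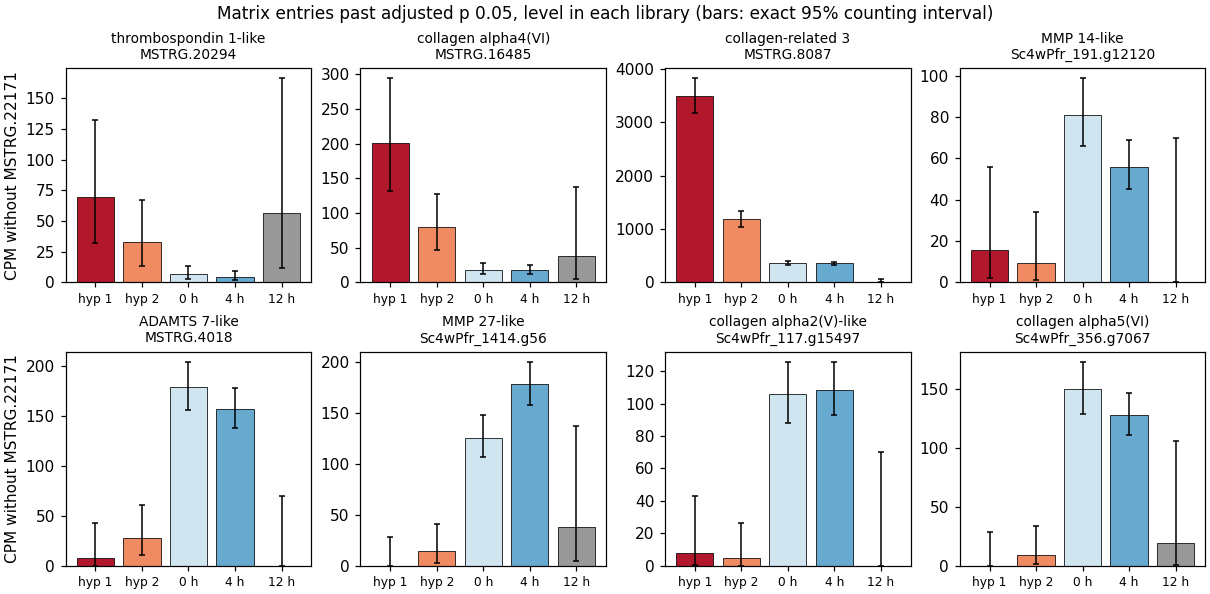
Level of the 8 called matrix entries in each library, in CPM without MSTRG.22171, with 1 panel per entry and exact 95% counting intervals as bars. The first 3 panels are higher in both hypostome libraries (hyp 1 and hyp 2) than at 0 and 4 h, and the other 5 stand between 0 and 28.1 CPM in the hypostome and between 56 and 179 CPM at 0 and 4 h.

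Fibrillar collagens form the banded or thin fibres of a matrix, and 31 entries bear such names. The collagen alpha2(V)-like entry (Sc4wPfr_117.g15497) had 7.73 and 4.68 CPM in the hypostome libraries, then 106 (0 h), 108 (4 h) and no count (12 h). These are 1 and 1 counts in the hypostome against 128 and 174, and the groups lie far apart. It fell by 4.29 ± 0.55 (SE) on the log2 scale with an edgeR adjusted p of 0.0241, and the early counts were spread over 116 barcodes at 0 h and 147 at 4 h, the highest holding 3. With all deposited barcodes it still fell, by 3.33 on the log2 scale.

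None of the other 5 tested fibrillar collagens was called. Collagen alpha1(V)-like (MSTRG.11850) had 15.5 and 23.4 CPM in the hypostome against 4.13 and 2.49 at 0 and 4 h, a log2 fold change of 2.46 ± 0.64 that missed the threshold (edgeR adjusted p = 0.0831). One collagen alpha1(I)-like entry (MSTRG.13644) had 46.4 and 23.4 CPM against 5.79 and 13.7, and the other (Sc4wPfr_16.1.g8497) 46.4 and 51.5 CPM against 38.9 and 52.3. The first is separated between the tissues and the second overlaps. The collagen alpha1(II)-like entries had log2 fold changes of -0.27 ± 0.59 (MSTRG.20488) and 0.50 ± 0.54 (MSTRG.23904). Below the filter, 4 fibrillar collagens had 20 or more counts over the 4 libraries: alpha1(I)-like (MSTRG.9948), alpha1(III)-like (MSTRG.3048), alpha2(I) (Sc4wPfr_558.1.g10166) and alpha1(XXIV) (Sc4wPfr_73.g11528), at 0 to 38.6 CPM in the hypostome and 3.74 to 13.7 at 0 and 4 h.

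Collagen IV builds the network of the basement membrane, and none of its 4 tested entries was called. The collagen alpha1(IV) entry with the most counts (Sc4wPfr_272.g11355) had 46.4 and 42.1 CPM in the hypostome, then 44.6 (0 h), 46.1 (4 h) and 19 (12 h), the last from 1 count. The tissues overlapped, with a log2 fold change of -0.18 ± 0.41. Its neighbour in the numbering (Sc4wPfr_272.g11352) stood at 38.6 and 23.4 CPM against 15.7 and 28, and a further alpha1(IV) entry (MSTRG.10415) at 108 and 28.1 CPM against 34.7 and 32.4, both overlapping. Collagen alpha5(IV)-like (MSTRG.26010) was the one collagen IV entry without overlap, at 178 and 201 CPM in the hypostome against 51.3 and 87.8, with a log2 fold change of 1.29 ± 0.40 that was not called (edgeR adjusted p = 0.123). A collagen alpha1(IV)-like entry (Sc4wPfr_272.g11351) had 2, 0, 16 and 15 counts in the 4 libraries and was not tested.

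Collagen VI forms beaded filaments in vertebrate matrices, and of 30 entries so named 6 were tested. One fell, one rose and 4 were not called. Collagen alpha5(VI) (Sc4wPfr_356.g7067) had no count in hypostome 1, 9.36 CPM in hypostome 2, 150 (0 h), 128 (4 h) and 19 (12 h). Both hypostome libraries lie below both early ones, and it fell by 4.67 ± 0.64 on the log2 scale with an edgeR adjusted p of 0.0298. Its early counts came from few barcodes: 16 barcodes held the 181 counts at 0 h, 139 of them in 1 barcode, and 29 held the 205 counts at 4 h, 97 of them in 1. With the highest barcode of each library left out of the entry's count, its level was 34.7 CPM at 0 h and 67.3 at 4 h, against 0 and 4.68 in the hypostome.

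Collagen alpha4(VI) (MSTRG.16485) had 201 and 79.6 CPM in the hypostome, then 18.2 (0 h), 17.4 (4 h) and 37.9 (12 h). Both hypostome libraries lie above the early ones, and it rose by 2.75 ± 0.47 on the log2 scale with an edgeR adjusted p of 0.0336. A single barcode held 24 of its 26 counts in hypostome 1. With the highest barcode of each library left out its levels were 15.5 and 56.2 CPM in the hypostome against 15.7 and 14.9, and the tissues overlapped. Its log2 fold change was 1.62 with all deposited barcodes and was not called. The other tested entries were collagen alpha1(VI)-like (MSTRG.23127), at 232 and 51.5 CPM against 33.9 and 27.4 with a log2 fold change of 1.95 ± 0.58 and an edgeR adjusted p of 0.113, collagen alpha6(VI) (Sc4wPfr_691.g31412), a second collagen alpha4(VI) (Sc4wPfr_363.2.g30380) and collagen alpha3(VI)-like (Sc4wPfr_2727.g32000). Their adjusted p lay between 0.113 and 0.919. Untested with 21 to 27 counts were 2 alpha6(VI)-like entries (Sc4wPfr_125.g5660 and Sc4wPfr_1263.g1361), alpha5(VI) (Sc4wPfr_356.g7066) and alpha3(VI) (Sc4wPfr_122.g9840).

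The collagen-related 3 precursor (MSTRG.8087), whose identifier also carries rows named minicollagen 8 and minicollagen 9, rose by 2.54 ± 0.46 on the log2 scale with an edgeR adjusted p of 0.0368. It had 452 and 253 counts in the hypostome libraries, then 435 (0 h), 573 (4 h) and 0 (12 h). Hypostome 1 stood nearly 3 times as high as hypostome 2, and 263 of its 452 counts came from 1 barcode. Without the highest barcode of each library the levels were 1460 and 931 CPM in the hypostome against 309 and 313, still without overlap. Over all deposited barcodes the log2 fold change was 1.46 and was not called. How reads were divided among the rows of one identifier is not given in the sources used here. The entry was taken by the word collagen in its name, which does not place it in the mesoglea. A nematocyte lineage-like cluster of barcodes, described below, held 85.2% of its counts. Whether it is a capsule collagen like the minicollagens was not tested.

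The remaining collagens gave no call. Collagen triple helix repeat-containing 1-like (MSTRG.25481) had 38.6 and 51.5 CPM against 36.4 and 54.2, collagen alpha1(VIII)-like (Sc4wPfr_650.g22981) 15.5 and 28.1 CPM against 10.7 and 11.8, and collagen alpha1(XVII) (MSTRG.6267) 38.6 and 0 CPM against 4.96 and 23.0. The second of these did not overlap, and the third differed as much within the hypostome as between the tissues. Among the 407 are also 2 collagen alpha1(XII) entries that had under 20 counts in the barcodes used elsewhere here, rose when all deposited barcodes were used, and are named after their values were seen. Collagen XII coats fibrils in vertebrates. MSTRG.22472 then had 52.2 and 35.0 CPM in the hypostome against 2.21 and 1.74, from 16, 24, 3 and 3 counts, and Sc4wPfr_715.g30416 had 16.3 and 23.3 CPM against 0.735 and 0.581, from 5, 16, 1 and 1 counts. Their hypostome counts thus lay mostly in shallow barcodes. So did most hypostome counts of all entries, of which barcodes with at least 200 genes held 37.7% and 27.7%. Short-chain collagen C4, a name first given to a sponge collagen, is borne by 21 entries with none tested. Their sum was 85.0 and 74.9 CPM in the hypostome against 52.9 at 0 h and 45.5 at 4 h, and the 3 with at least 20 counts were MSTRG.4485, MSTRG.18294 and Sc4wPfr_1309.1.g9693. Collagen alpha1(XIV)-like (MSTRG.2845) had 1, 3, 11 and 12 counts. The one tested collagen-modifying enzyme under these names, a procollagen-lysine dioxygenase 3-like entry (MSTRG.22685) that hydroxylates lysines of collagen, had 54.1 and 93.6 CPM against 22.3 and 40.5, with no overlap and no call (edgeR adjusted p = 0.258).

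**Figure D2:**
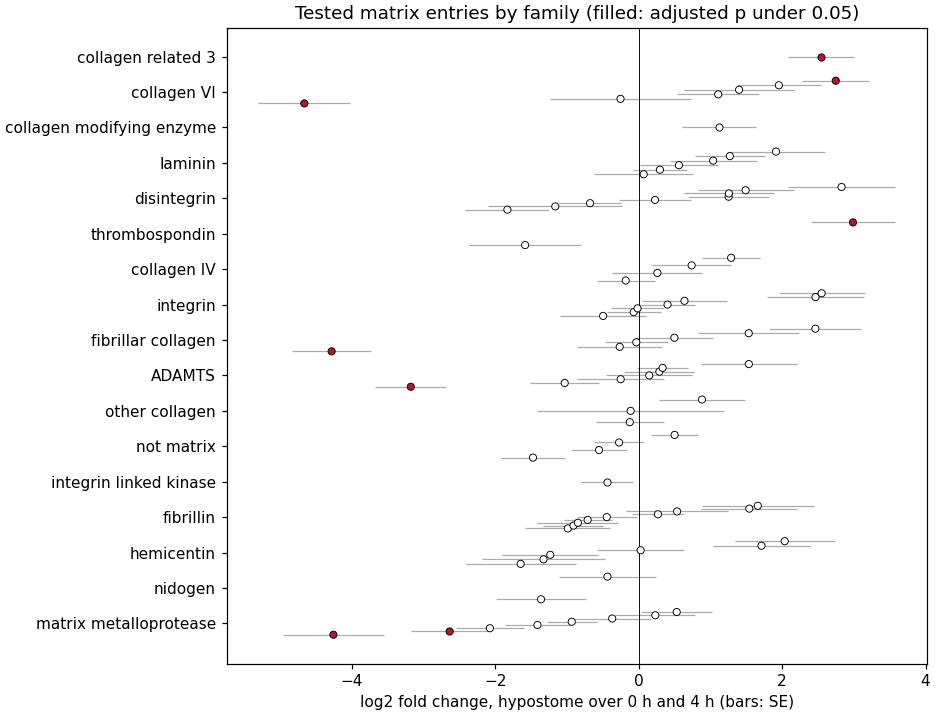
Log2 fold change, hypostome over 0 h and 4 h, of the 81 tested entries by family, with standard errors as bars and the 8 called entries filled. In this fit laminins lie above 0 and most matrix metalloproteases below it, while the collagen VI entries run from -4.67 to 2.75.

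Laminins are trimers of alpha, beta and gamma chains that lay the first sheet of a basement membrane. All 6 tested entries had a log2 fold change above 0, from 0.07 to 1.91, and 5 lay above both early libraries in both hypostome libraries, but none was called (smallest edgeR adjusted p = 0.168). An entry low at 0 and 4 h, such as laminin gamma1 at 4.13 and 9.34 CPM, could pass the filter on low counts only through the hypostome libraries. The direction of such an entry was fixed beforehand, so the 6 signs describe the tested entries only. With no gene filter the median of all entries shifted to -0.84 and that of the laminins stood at 0.29, with 2 of the 6 below 0 but none below the median of all entries. One laminin lay below 0 without hypostome 1 and one without hypostome 2, at -0.04 and -0.02. The laminin gamma1 entry (MSTRG.12467) had 38.6 and 23.4 CPM in the hypostome against 4.13 and 9.34. A laminin alpha entry (MSTRG.4013) had 77.3 and 37.4 CPM against 20.7 and 19.9. The gamma1-like row under the first identifier had 61.8 and 51.5 CPM against 45.5 and 38.0. The other 3 were the adjacent-numbered alpha and alpha3 entries (Sc4wPfr_14.g1743 and Sc4wPfr_14.g1744) and beta1-like (Sc4wPfr_1127.g22555), the last at 15.5 and 14 CPM against 9.92 and 14.9, which overlaps. An alpha1-like entry (Sc4wPfr_90.g1177) had 0, 2, 16 and 6 counts and was not tested.

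Nidogen links laminin to collagen IV. Nidogen 2 (Sc4wPfr_2081.g25302) had 7.73 and 18.7 CPM in the hypostome against 43.0 at 0 h and 26.8 at 4 h, from 1 and 4 counts in the hypostome, and was not called (log2 fold change -1.36 ± 0.63, edgeR adjusted p = 0.264). Nidogen 1 (Sc4wPfr_485.1.g19372) had 15.5 and 9.36 CPM against 14.1 and 14.9 and overlapped.

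The matrix metalloproteases, zinc proteases that cut matrix proteins, had the lowest median among families with at least 5 tested entries, -1.17 over 8. The test called 2 lower, against 1.16% of all entries tested. Below both early libraries lay 5 of the 8, against 22.8% of all entries, and 5 had an unadjusted p under 0.05, against 1622 of 7682. Matrix metalloprotease 27-like (Sc4wPfr_1414.g56) had no count in hypostome 1, 14 CPM in hypostome 2, 126 (0 h), 178 (4 h) and 37.9 (12 h). It fell by 4.26 ± 0.71 on the log2 scale with an edgeR adjusted p of 0.0336. A 14-like entry (Sc4wPfr_191.g12120) had 15.5 and 9.36 CPM in the hypostome, then 81.0 (0 h), 56 (4 h) and no count (12 h). It fell by 2.64 ± 0.54 with an edgeR adjusted p of 0.0452, the call nearest the threshold, which was lost with DESeq2, with MSTRG.22171 kept, and without hypostome 2 or the 0 h library.

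With all deposited barcodes 5 of the 8 metalloproteases had a log2 fold change above 0. The 27-like entry still fell then, by 1.88 on the log2 scale, and the 14-like entry had a log2 fold change of -0.55 and was not called. Next to it in the numbering, matrix metalloprotease 14 (Sc4wPfr_191.g12122) had 38.6 and 14 CPM against 102 and 84.1, and just missed the threshold (log2 fold change -2.08 ± 0.47, edgeR adjusted p = 0.0591). Matrix metalloprotease 19 (Sc4wPfr_104.g15015) had 38.6 and 70.2 CPM against 188 and 96.5, and a further 14-like entry (Sc4wPfr_472.g14883) 54.1 and 51.5 CPM against 102 and 83.4, both without overlap and without a call. The 9-like (Sc4wPfr_756.g14124) and the last tested 14-like entry (Sc4wPfr_562.2.g1366) overlapped. The 25-like entry (MSTRG.22269) alone lay above, at 77.3 and 98.3 CPM against 35.5 and 74.1. Untested were a further 14-like entry (Sc4wPfr_706.2.g7977; 0, 2, 8 and 33 counts) and a type IV collagenase-like entry (Sc4wPfr_1414.g53) with 0, 0, 17 and 22 counts, numbered close to the 27-like one.

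ADAMTS proteases are secreted enzymes that cut proteoglycans and procollagens in vertebrates. The 7-like entry (MSTRG.4018) had 7.73 and 28.1 CPM in the hypostome, then 179 (0 h), 157 (4 h) and no count (12 h). It fell by 3.18 ± 0.49 on the log2 scale with an edgeR adjusted p of 0.0325, with its early counts in 174 and 201 barcodes. With all deposited barcodes the log2 fold change was -1.29 and was not called. The other 6 tested entries had adjusted p between 0.238 and 0.925. They were a pair named 19, with MSTRG.23304 at 30.9 and 103 CPM against 139 and 132 and Sc4wPfr_338.1.g31652 at 124 and 84.3 CPM against 67.8 and 77.8, a pair named 6 (MSTRG.19247 and Sc4wPfr_635.g14746), and one each named 14 (Sc4wPfr_118.g25084) and 20 (MSTRG.1368). Of the pair named 19 one lay below and the other above both early libraries. The untested entries with at least 20 counts were MSTRG.13310, Sc4wPfr_356.g7047, MSTRG.20910, Sc4wPfr_565.g22061 and Sc4wPfr_135.g21805, with 0 to 6 counts in a hypostome library and 5 to 19 at 0 or 4 h.

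Fibrillins are long glycoproteins of elastic microfibrils in vertebrates. None of 9 tested entries was called and none had an unadjusted p under 0.05. A fibrillin 2-like entry (MSTRG.13493) had 76, 232, 942, 2074 and 13 counts in hypostome 1, hypostome 2, 0 h, 4 h and 12 h, or 587, 1086, 779, 1292 and 247 CPM. The hypostome libraries lay as far apart as 0 h and 4 h did, and the log2 fold change was -0.45 ± 0.42. The fibrillin 2-like MSTRG.26387 had 54.1 and 243 CPM against 236 and 281, again apart within the hypostome. The fibrillin 2-like MSTRG.13494 and Sc4wPfr_975.g7252 and the fibrillin 1-like Sc4wPfr_282.g29638 lay below both early libraries, and MSTRG.12731, Sc4wPfr_588.g23925 and MSTRG.4512 above them. The fibrillin 3-like MSTRG.16566 had 54.1 and 18.7 CPM against 31.4 and 11.8.

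Hemicentins are large immunoglobulin-repeat proteins that join tissues across basement membranes in worms and fish. Of 6 tested hemicentin 1 entries none was called, with adjusted p between 0.149 and 0.988. MSTRG.945, Sc4wPfr_274.1.g13601 and Sc4wPfr_729.g12871 lay below, at 0 to 14 CPM in the hypostome against 16.8 to 29.9, while Sc4wPfr_106.g23594 and Sc4wPfr_758.g3713 lay above and MSTRG.2284 overlapped. The Sc4wPfr_758.g3713 entry had 69.5 and 32.8 CPM against 17.4 and 4.98. A hemicentin 2-like row (MSTRG.15311) had no count in the hypostome and 16 and 29 counts at 0 and 4 h, and MSTRG.10528 had 0, 0, 7 and 19. The hypostome floors of 23.2 and 14 CPM overlap the 13.2 and 18.1 CPM of the first at 0 and 4 h. Neither hypostome library taken alone could thus be placed below both, and the hypostome libraries were not pooled for this entry. A second MSTRG.2284 row and Sc4wPfr_720.g12291 had 21 and 31 counts and were not tested.

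Thrombospondins are secreted glycoproteins that bind cells, collagen and growth factors. The thrombospondin 1-like entry (MSTRG.20294) had 9 and 7 counts in the hypostome, then 8 (0 h), 7 (4 h) and 3 (12 h), or 69.5, 32.8, 6.61, 4.36 and 56.9 CPM. It rose by 2.99 ± 0.59 on the log2 scale with an edgeR adjusted p of 0.0428, and its call was lost without any 1 of the 4 libraries and with all deposited barcodes (log2 fold change 1.92). At 0 and 4 h the entry lay too low to pass the filter on low counts, so it was tested through the hypostome libraries alone. Its identifier also carries an SCO-spondin-like row. The entry for a somatomedin-B and thrombospondin type 1 domain protein (MSTRG.16074) had 7.73 and 4.68 CPM against 16.5 and 16.2 and was not called (edgeR adjusted p = 0.294). When all deposited barcodes were used, a thrombospondin type 1 domain 7A-like entry (MSTRG.17688) also rose, at 19.6 and 37.9 CPM against 2.94 and 4.07, and it too was named after its values were seen. Papilin, a basement membrane glycoprotein, had 3 entries, which summed to 0 and 4.68 CPM in the hypostome and 4.13 and 2.49 at 0 and 4 h.

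Integrins are the alpha and beta receptor pairs that bind laminin and collagen from the cell side. None of 7 tested entries was called. Integrin beta1-like (Sc4wPfr_1044.g6813) had 61.8 and 51.5 CPM in the hypostome, then 62.8 (0 h), 45.5 (4 h) and 19 (12 h), and integrin alphaV-like (MSTRG.4981) had 77.3, 51.5, 61.2, 54.2 and 37.9 CPM. Both overlapped, with log2 fold changes of -0.07 ± 0.38 and -0.02 ± 0.37. Integrin betaPS-like (MSTRG.17400) and integrin alpha6 (MSTRG.3184), the latter named for a vertebrate laminin receptor, overlapped as well. The 3 integrin alpha8 entries lay above: Sc4wPfr_618.g14879 had 23.2 and 28.1 CPM against 4.96 and 3.11, a log2 fold change of 2.55 ± 0.60 that just missed the threshold (edgeR adjusted p = 0.0647). Sc4wPfr_17.g15860 had 30.9 and 23.4 CPM against 2.48 and 5.60, and Sc4wPfr_113.1.g28324 23.2 and 32.8 CPM against 13.2 and 19.9. The first 2 rest on 3 to 6 counts in each hypostome library. A second alphaV-like (Sc4wPfr_1593.g7857) and betaPS-like entry (Sc4wPfr_488.g29956) were not tested.

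Integrin-linked kinase, which joins integrin tails to actin, had 54.1 and 51.5 CPM in the hypostome against 67.8 and 62.9 (MSTRG.4356), without overlap and with a log2 fold change of -0.44 ± 0.36. A second such entry (Sc4wPfr_1449.g14276) had 1, 1, 19 and 11 counts. Among entries named for a partner or a domain, of which 4 were tested and none called, a phosphatase 2C of this kinase (Sc4wPfr_638.g29691) had 23.2 and 23.4 CPM against 62.8 and 56.7 (edgeR adjusted p = 0.114). The others were a further phosphatase entry (MSTRG.20988), a fibronectin-binding wall protein (Sc4wPfr_548.g4890) and a fibronectin type III domain entry (MSTRG.22754). Untested with at least 20 counts were MSTRG.18820, Sc4wPfr_1228.g7353 and Sc4wPfr_489.2.g16692, the last named for a protein that binds collagen IV alpha3.

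The disintegrin-type proteases gave no call in 8 tests. A mocarhagin-like entry (MSTRG.3915), named for a snake venom metalloprotease, had 46.4 and 65.5 CPM in the hypostome, then 103 (0 h), 260 (4 h) and no count (12 h). It lay below both early libraries with a log2 fold change of -1.83 ± 0.59 and an edgeR adjusted p of 0.128. The second mocarhagin-like entry (Sc4wPfr_1386.g7456) had 0 and 28.1 CPM against 20.7 and 47.3. An entry of type 9 (MSTRG.22824) had 15.5 and 32.8 CPM against 1.65 and 4.36, a log2 fold change of 2.83 ± 0.74 with an edgeR adjusted p of 0.0861. Type 10, the family of Kuzbanian and of the human Notch-cutting protease, had 3 tested entries: Sc4wPfr_1020.1.g6653 below, and Sc4wPfr_1020.1.g6652 and Sc4wPfr_26.g17289 above. Type 9 (Sc4wPfr_73.g11552) and 26A-like (Sc4wPfr_4929.g4755) lay above, and a type 22 row of MSTRG.22824 and type 26A (Sc4wPfr_536.g2752) were not tested. The other 293 of the 407 entries had fewer than 20 counts over the 4 libraries, and 84 of them had none there.

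The barcodes were grouped into 7 clusters without the matrix entries and MSTRG.22171, to see where in the cells each entry lay. One cluster of 90 barcodes had the marker genes of the nematocyte lineage, with 16 of the 23 markers at least 4-fold above the other barcodes, and is called nematocyte lineage-like. It held 11.8% and 8.93% of hypostome barcodes, but 1.16% at 0 h, 1.26% at 4 h and none at 12 h. A second cluster, of 299 deep barcodes, had too few markers of any class for a name, and held 41.8% and 32.7% of hypostome barcodes but 2.57% and 3.09% at 0 and 4 h. Its leading genes were a polRFamide neuropeptide and a centrosomal protein-like entry. The other 5 clusters, numbered 0 to 4, stay unnamed. Together they held 25.5% and 27.7% of the hypostome counts, against 75.9% at 0 h and 75.2% at 4 h. The deposited barcodes were neither called nor filtered for doublets here.

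Matrix entries summed to 12028 CPM in the nematocyte lineage-like cluster and to between 4814 and 5797 CPM in each of the other 6. Of the 12028 CPM, the collagen-related 3 precursor made 5438 and collagen alpha5(VI) (Sc4wPfr_356.g7067) 1249. They stood at 86.3 and 18.3 CPM in the other barcodes, so the higher sum rests largely on them and is not a trait of the whole set. The nematocyte lineage-like cluster held 8.35% of all counts. It held 85.2% of the counts of the collagen-related 3 precursor, 86.1% of collagen alpha5(VI) (Sc4wPfr_356.g7067), 76.3% of collagen alpha5(IV)-like (MSTRG.26010) and 73.4% of collagen alpha1(II)-like (MSTRG.23904). It held 60.0% of both collagen alpha4(VI) (MSTRG.16485) and alpha6(VI) (Sc4wPfr_691.g31412), and 45.0% of alpha1(VI)-like (MSTRG.23127). The 8 minicollagen entries, which the rule leaves out, had 81.5% of their counts there. They were not left out of the clustering and are among the markers that named the cluster, so their share is not an independent result. A minicollagen 9 row, under the identifier of the collagen-related 3 precursor, is also among the leading genes of the cluster. The share of collagen alpha5(VI) rests on few barcodes, since 9 of the 90 carried it and 2 of them held 139 and 97 of its counts.

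The basement membrane entries were not alike in this. The collagen IV family had 32.4% of its counts in the nematocyte lineage-like cluster, most of them of the alpha5(IV)-like entry, and nidogens had 12%, both above its 8.35% of all counts. But nidogen 2 (Sc4wPfr_2081.g25302), with 100 of the 167 nidogen counts, had only 4% of them in that cluster. Collagen alpha1(IV) entries Sc4wPfr_272.g11355 and Sc4wPfr_272.g11352 had no count there, and MSTRG.10415 had 1.75%. Laminins as a family had 2.98% of their counts in it, matrix metalloproteases 2.07%, fibrillins 5.34%, hemicentins 4.29% and integrins 5.05%, all below 8.35%. Of the matrix metalloprotease counts 86.3% lay in clusters 0 to 4, against 69.4% of all counts. The 27-like entry had 95.7% and collagen alpha2(V)-like 95.1% in those clusters.

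**Figure D3:**
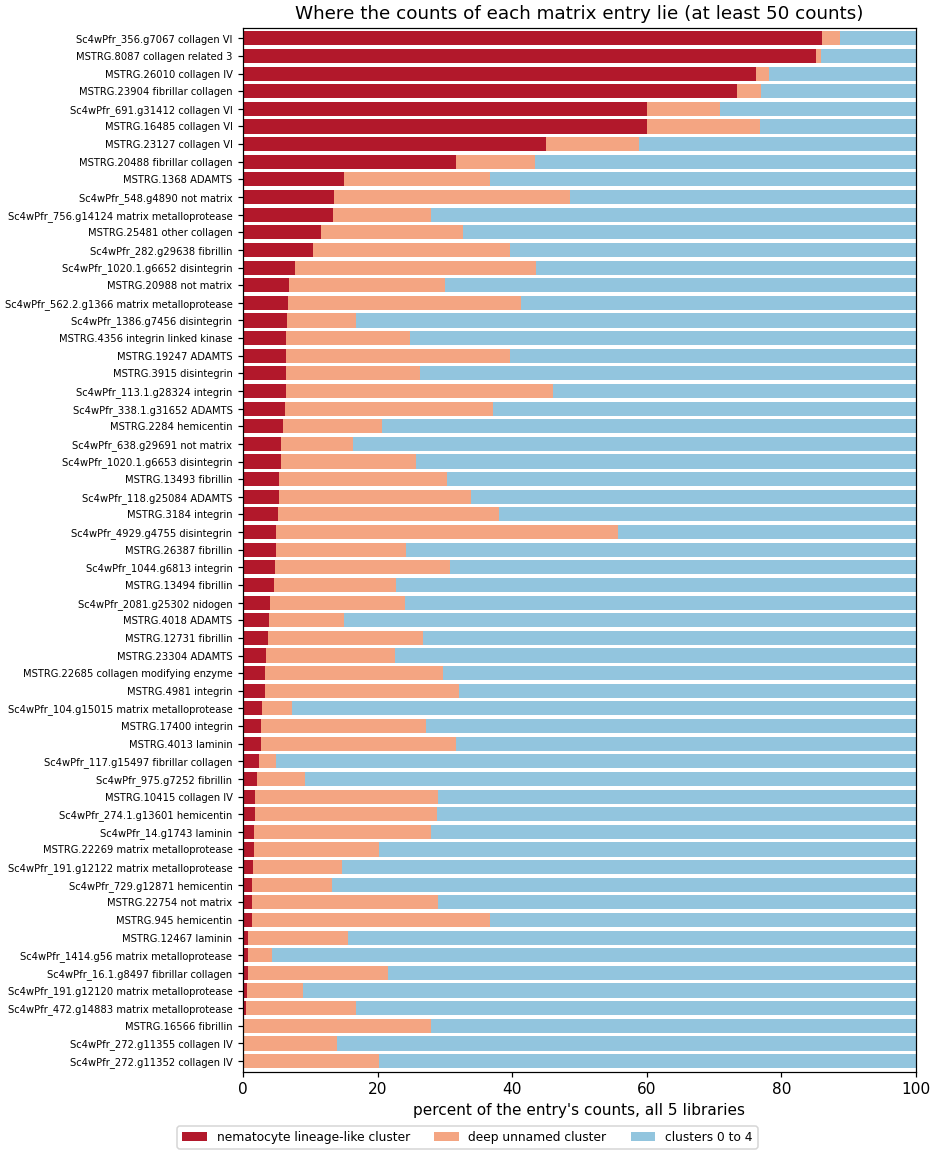
Share of each matrix entry's counts, in percent over all 5 libraries, that lies in the nematocyte lineage-like cluster, in the deep unnamed cluster and in clusters 0 to 4, for the 59 entries with at least 50 counts. Collagen-named entries fill the top with up to 86.1% in the nematocyte lineage-like cluster, while collagen alpha1(IV) entries Sc4wPfr_272.g11355 and Sc4wPfr_272.g11352 are among those with 0%.

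Levels were also read within the 90 nematocyte lineage-like barcodes, in 13 and 15 hypostome barcodes against 27 and 35. The collagen-related 3 precursor stood at 15806 and 7037 CPM in the hypostome against 2856 at 0 h and 4721 at 4 h. Without the highest barcode of each library the levels were 6568 and 5511 CPM against 2301 and 3969. It was found in 12 of 13, 14 of 15, 25 of 27 and 28 of 35 of these barcodes, with median depths of 1546, 1537, 1716 and 1843 counts. In clusters 0 to 4 it was found in 1.96%, 2.04%, 4.77% and 4.25% of barcodes, with median depths of 413, 486, 438 and 736. The marker genes of the lineage stood at 109691 and 86197 CPM in the same barcodes of the hypostome, 37252 at 0 h and 62057 at 4 h, and moved in the same order. Their part in the result was not tested. The edgeR log2 fold change of the entry within the cluster was 1.81 and was not called (adjusted p = 0.263).

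Collagen alpha5(VI) (Sc4wPfr_356.g7067) had 169 and 166 counts in that cluster at 0 and 4 h, or 1537 and 1757 CPM, and 0 in the hypostome. It was 1 of 2 entries called among 850 tested within the cluster (0.235%, edgeR adjusted p = 0.0474). But the early counts lay in 5 of 27 and 4 of 35 barcodes (18.5%, exact interval 6.30 to 38.1, and 11.4%, interval 3.20 to 26.7). None of 13 and none of 15 hypostome barcodes had a count, with exact intervals that reach 24.7% and 21.8%. With so few barcodes a lower share of carrying barcodes was not detectable. The intervals describe barcodes within each library, which are not replicates of a tissue.

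Collagen alpha4(VI) (MSTRG.16485) had 878 and 339 CPM in the hypostome barcodes of that cluster against 81.9 and 116, and was not called there (log2 fold change 2.80). One barcode held 24 of its 25 counts in hypostome 1. Without the highest barcode of each library its levels were 35.1 and 198 CPM against 54.6 and 74.1, and the tissues overlapped. Collagen alpha5(IV)-like (MSTRG.26010) had 738 and 1159 CPM against 373 and 1090, and collagen alpha1(II)-like (MSTRG.23904) 457 and 226 CPM against 227 and 593. Both overlap within the cluster.

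**Figure D4:**
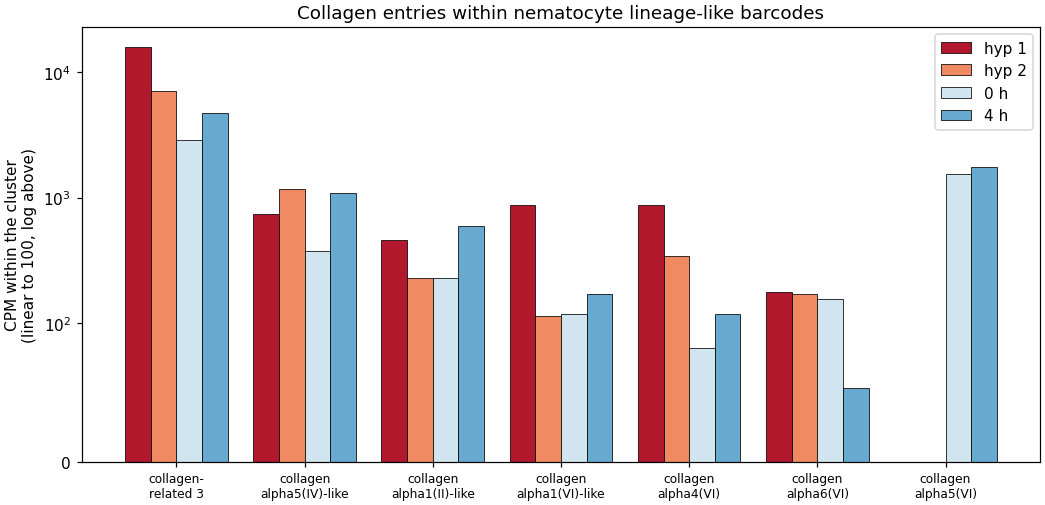
CPM of 7 collagen entries within the nematocyte lineage-like barcodes of each hypostome library (13 and 15 barcodes) and of 0 h and 4 h (27 and 35). The vertical axis is linear to 100 and logarithmic above. The collagen-related 3 precursor and collagen alpha4(VI) stand higher in both hypostome libraries, and collagen alpha5(VI) has no hypostome bar. The alpha4(VI) bar of hypostome 1 rests on 1 barcode with 24 of 25 counts and would stand at 35.1 CPM without it.

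With the nematocyte lineage-like cluster left out, 8 of 76 matrix entries were called (4.31% of all entries tested then), and 6 of them were among the first 8. The collagen-related 3 precursor then changed direction. Outside the cluster it had 2 and 4 counts in the hypostome, or 19.8 and 22.4 CPM, against 110 and 84.0 CPM at 0 and 4 h, and it fell by 2.37 on the log2 scale with an edgeR adjusted p of 0.0306. Collagen alpha2(V)-like, the 27-like and the first 14-like matrix metalloprotease and ADAMTS 7-like all fell without that cluster too, with log2 fold changes of -4.16, -4.15, -2.54 and -3.03. Collagen alpha5(VI) and alpha4(VI) did not pass the filter on low counts outside the cluster.

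In clusters 0 to 4 alone none of 50 matrix entries was called by edgeR (21 of 5268 entries, 0.399%), with 8 at an unadjusted p under 0.05. Collagen alpha2(V)-like had 30.3 and 16.9 CPM in the hypostome there, from 1 count each, against 133 and 137. The 27-like entry had 0 and 33.8 CPM against 151 and 233, and ADAMTS 7-like 30.3 and 50.7 CPM against 190.7 and 186. The hypostome libraries stayed below the early ones for all 3, with log2 fold changes of -2.86, -3.41 and -2.36 that did not pass the test. The thrombospondin 1-like counts of the hypostome lay in the deep unnamed cluster instead, 9 of 9 and 6 of 7, in 4 and 2 barcodes, while its early counts all lay in clusters 0 to 4. The share of hypostome barcodes in the deep cluster thus moved with that entry, and its part in the result was not tested.

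Other genes of matrix assembly were read from 3 further lists, set by name. Enzymes and chaperones of collagen processing (15 tested) had a median log2 fold change of 1.04 against -0.05 for all entries. Of the 15, 11 lay above both early libraries and none below, against 28.4% and 22.8% of all entries, and none was called by edgeR, with 6 at an unadjusted p under 0.05. An entry could pass the filter on low counts through the hypostome libraries alone, as did the 2 named next. These counts therefore describe the tested entries only. The smallest p belonged to 2 lysyl oxidase 4-like entries, which cross-link collagen: Sc4wPfr_118.g25051 had 38.6 and 23.4 CPM in the hypostome against 4.96 and 3.11 (log2 fold change 2.73, edgeR adjusted p = 0.0554), and Sc4wPfr_289.g2554 30.9 and 28.1 CPM against 6.61 and 8.10 (adjusted p = 0.125). Among 29 tested entries of the list for other matrix proteins 1 rose, against 1.86% of all entries tested. This was a von Willebrand factor A domain 5B2 entry (Sc4wPfr_6.1.g569), which also passed the filter through the hypostome libraries alone. It had 116 and 42.1 CPM against 2.48 and 6.85, with a log2 fold change of 3.71 ± 0.70 and an edgeR adjusted p of 0.0399. The list took it by the words von Willebrand in its name, which do not show that it is a protein of the matrix. Among 17 tested entries of the integrin adhesion complex inside the cell none was called and 3 had an unadjusted p under 0.05. A filamin A entry (Sc4wPfr_555.g27164) had 7.73 and 0 CPM against 26.5 and 24.3 (edgeR adjusted p = 0.128), and another (MSTRG.11820) 54.1 and 23.4 CPM against 9.09 and 11.2 (adjusted p = 0.168).

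Marker lists of cell types were counted in the same test, in which 1.86% of all entries rose and 1.16% fell. Of the tested nematocyte lineage markers 3 of 16 rose and none fell, with a median log2 fold change of 1.74. For gland cells 1 of 35 rose and 3 fell, for neurons 3 of 22 rose and 1 fell, for the endodermal epithelium none of 36 rose and 1 fell, for the ectodermal epithelium 3 of 13 rose and 3 fell, and for stem cells 1 of 16 rose and none fell. The endodermal count is near the share of all entries. The part of these markers in the matrix values, outside the clusters given above, was not tested.

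Regeneration time was read from 1 library a time point, so the 4 h and 0 h libraries are compared without a test, over 55 matrix entries with at least 50 counts between them. Of these 4 differed by at least 2-fold, 3 higher at 4 h (3.99% of all such entries) and 1 lower (4.42%), in all 7.27% against 8.4%, a share near that of all entries. The mocarhagin-like proteases stood higher at 4 h, with ratios of 2.51 (exact conditional interval 2.05 to 3.09) for MSTRG.3915 and 2.29 (1.44 to 3.76) for Sc4wPfr_1386.g7456, as did matrix metalloprotease 25-like (MSTRG.22269) at 2.08 (1.46 to 3.03). The fibrillin 3-like entry (MSTRG.16566) stood lower, with a ratio of 0.377 (0.205 to 0.670). Keeping MSTRG.22171 in the totals multiplies every ratio by 0.741 and moves the median ratio of all such entries from 0.872 to 0.646. Then 0 matrix entries passed 2-fold higher and 4 lower, against 2.01% and 19.2% of all. The 3 higher ones stayed above 1, at 1.86, 1.70 and 1.54, and 3 others joined the fibrillin 3-like entry below, ADAMTS 20 (MSTRG.1368), matrix metalloprotease 19 (Sc4wPfr_104.g15015) and nidogen 2 (Sc4wPfr_2081.g25302). The intervals cover counting error only.

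Entries with a call in the tissue comparison were read over time as well, and for 4 of those named here the interval took in 1. The ratio of 4 h over 0 h was 1.02 (0.810 to 1.30) for collagen alpha2(V)-like, 0.853 (0.695 to 1.05) for collagen alpha5(VI), 0.879 (0.730 to 1.06) for ADAMTS 7-like and 0.992 (0.874 to 1.13) for the collagen-related 3 precursor. The intervals of the matrix metalloprotease 27-like entry, at 1.42 (1.16 to 1.74), and the 14-like, at 0.692 (0.514 to 0.931), left out 1, as did that of matrix metalloprotease 19, at 0.514 (0.417 to 0.634). The metalloproteases thus stood on both sides of 1. Among basement membrane chains the ratio was 1.03 (0.717 to 1.49) for collagen alpha1(IV) (Sc4wPfr_272.g11355), 1.78 (1.02 to 3.23) for Sc4wPfr_272.g11352, 0.835 (0.571 to 1.23) for laminin gamma1-like and 0.623 (0.406 to 0.951) for nidogen 2. The fibrillin 2-like MSTRG.13493 stood at 1.66 (1.53 to 1.79). The median ratio of all entries with at least 50 counts, given above, lies below 1, so 1 is not a typical entry's level. That median falls within the intervals of the 14-like entry and nidogen 2, and just below that of the collagen-related 3 precursor.

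**Figure D5:**
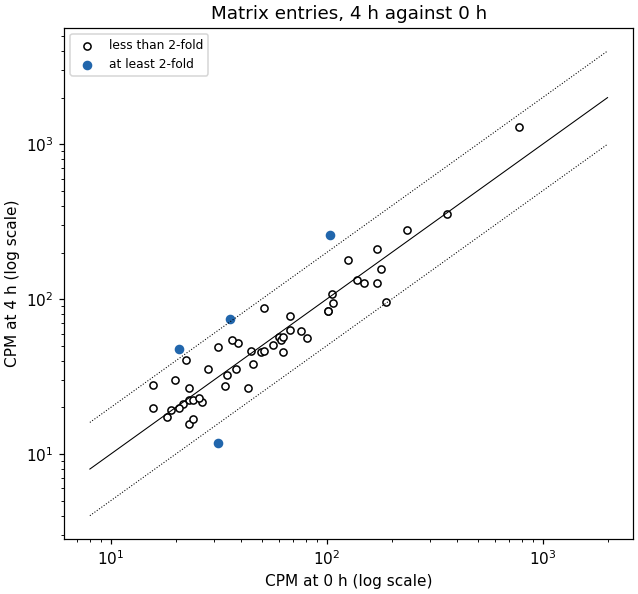
Level of the 55 matrix entries with at least 50 counts at 0 h and 4 h, in CPM on logarithmic axes, with dotted lines at 2-fold and the 4 entries beyond them filled. Most entries lie between the lines, with ratios from 0.514 to 1.81.

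The 12 h library had 89 matrix entries with a count and 214 matrix counts in its 64 barcodes, so 1 count is worth 19 CPM and an entry at 0 could stand at up to 56.9 CPM. Of the 8 entries with a call in the tissue comparison, 4 had no count at 12 h. Those were the collagen-related 3 precursor, collagen alpha2(V)-like, the 14-like matrix metalloprotease and ADAMTS 7-like, and the floor lies below the 4 h levels of the first, the second and the last, 356.8, 108 and 157 CPM, but above the 56 CPM of the 14-like entry. The library held no nematocyte lineage-like barcode and 81.3% of its barcodes were in the deep unnamed cluster, and their part in these levels was not tested.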

How the data were processed

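The authors deposited unscaled counts for each entry in each cell barcode, per the labels from SureCell 3′ libraries; whether they are reads or molecules, the genome build and the annotation are not given in the sources used here, and the submitters' processing notes name kallisto 0.46.1.  Counts were summed per library over barcodes with at least 200 detected genes, without MSTRG.22171. Levels are CPM with exact 95% Poisson intervals, which cover counting error only. The 2 hypostome libraries were tested against 0 h and 4 h with edgeR 4.0.16 (R 4.3.3): quasi-likelihood, TMM, filterByExpr, Benjamini-Hochberg at 0.05, 2 residual degrees of freedom. The 0 h and 4 h libraries are not replicates, so their difference enters the spread. The standard error is the fold change over the square root of F. DESeq2 1.42.0 was an alternative. The 12 h library stayed out of the fit because it is shallow. Barcodes were clustered with scanpy 1.11.5 (2000 variable genes, 30 components, 15 neighbours, Leiden resolution 0.8). A cluster was named for at least 3 markers 4-fold higher and 2 among its 10 leading genes, limits set after the data were seen. Doublets were not called. Every matrix entry that passed the filter or had at least 20 counts is named, and in other lists the called entries or else the 2 with the smallest p. Names that a list's pattern caught wrongly were removed from the other lists. Members and lists were chosen with earlier results of these data known. The 0 identifiers matched in the gene table give no gene symbols, so names are the tables' own. Levels without the highest barcode of each library were added after seeing the data and carry no test. The scripts were tested on simulated data.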

Additional observations from a re-analysis of the deposited data

Results flagged for a closer look

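Both of these were seen in the 12 h library, which the tissue comparison does not use, and their 95% counting intervals there lie above those of the other 4 libraries. Collagen alpha6(VI)-like (Sc4wPfr_1969.g28117) had 9 counts at 12 h, or 171 CPM (interval 78.1 to 324), against at most 7.73 CPM elsewhere, and 134 against at most 13 CPM with all deposited barcodes. The disintegrin and metalloprotease 26A-like entry (Sc4wPfr_4929.g4755) had 16 counts, or 304 CPM (interval 173 to 493), against at most 37.4 CPM elsewhere, and 259.8 against at most 19.6 CPM with all deposited barcodes. The 16 counts lay in 10 of the 64 barcodes.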

How the results depend on the processing

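The fits with DESeq2, MSTRG.22171 kept and a filter of 20 CPM called 7, 7 and 9 matrix entries (263, 180 and 300 of all entries), within 1.5 times the 8 reported. Library totals called 14 (547 of all entries), no gene filter 18 (974) and thinning 5 (121). Barcodes with at least 500 genes and the fit with the 12 h library called 0 and 0 of all entries by edgeR, with 9 and 11 matrix entries (516 and 339 of all) at an unadjusted p under 0.05. Leaving out each library gave 0 to 11 matrix entries and 3 to 377 of all, and with 1 library left in a tissue the lone library is assumed to vary like the others; the 0 and the 3 came without hypostome 1. All deposited barcodes called 6, of which 3 were among the 8; the others were 2 collagen alpha1(XII) entries and a thrombospondin type 1 domain 7A-like entry. A further 3 fits were chosen after seeing the data: without the nematocyte lineage-like cluster 8 were called (316 of all), within it 1 (2 of all) and in clusters 0 to 4 0 (21 of all). The collagen-related 3 precursor went from 2.54 to -2.37 and -1.60 in the first and last of these, where its hypostome counts are 2 to 4. Of the 73 uncalled entries 38 changed sign and 13 were called in some of the 16 alternatives. The 4 entries at least 2-fold apart between 4 h and 0 h were 5 with TMM factors, 18 at a minimum of 20 counts and 0 at 4-fold. For these counts and those of sign changes no share of all entries is given, so neither is read as particular to matrix entries. No paired analysis was possible because each time point has 1 library and the tissues share no replicate pairs. A hypostome entry below 14 to 23.2 CPM cannot be told from 0 at this depth.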
